A study of Mus musculus with 36 samples.

Results

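The 9 genes described here encode the structural proteins of the meiotic chromosome axis and of the synaptonemal complex in mouse: Sycp1, Sycp2, Sycp3, Syce1, Syce2, Syce3, Tex12, Hormad1 and Hormad2. They were chosen by symbol, as a list of gene names and not by their values, and all 9 were found among the 56893 gene symbols of the PGC tables and the 55492 of the gonad tables. Of the 9 genes, 7 (all but Syce2 and Hormad2) are also on a meiosis list that the study chose on these PGC libraries, so their direction in PGCs is not independent of that choice.

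RNA-seq of 36 libraries, in 12 groups of 3, covered fetuses of control dams and of dams made hyperglycemic during pregnancy (intrauterine hyperglycemia, IUHG). IUHG dams were given streptozotocin (STZ, a toxin of the insulin-producing beta cells) on day 3.5 of pregnancy, at a dose of 120 mg/kg, and were included where blood glucose was over 14 mM on day 6.5. Control dams were labelled only as the control group. All samples carry the genotype label WT. The PGC groups, 10 in all, held primordial germ cells pooled over fetuses. They had been sorted by an Oct4-EGFP reporter, which the methods describe. The groups were control and IUHG PGCs at E12.5 with sex not determined, of females at E13.5 and E16.5 (E13.5F, E16.5F) and of males at E13.5 and E16.5 (E13.5M, E16.5M). The other 2 groups were pooled whole female gonads at E13.5 from ICR mice, control and IUHG, which hold somatic cells beside germ cells. A model of this kind exposes the whole fetus and dam, and a sort on a pluripotency-gene reporter keeps only cells that still express it. The question was how IUHG alters germ cell development, and for these 9 genes, whether their transcripts were altered at the stage when female germ cells enter meiosis.

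In meiotic prophase, sister chromatids are organised as loops along a protein axis, and the axes of homologous chromosomes are then joined along their length by the synaptonemal complex. The axis, which becomes the lateral element, contains the SYCP2 and SYCP3 proteins, and the HORMA-domain proteins HORMAD1 and HORMAD2 mark it until homologues synapse. SYCP1 forms the transverse filaments, and SYCE1, SYCE2, SYCE3 and TEX12 form the central element in which the filaments meet. Female germ cells of the mouse enter meiosis in the fetal ovary, whereas male germ cells arrest as prospermatogonia and enter meiosis after birth.

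Values are TPM, a share of all transcripts that is scaled for transcript length, so that levels can be set side by side between genes. Depth, as the aligned bases behind each library, was 3.25 to 8.32 gigabases in PGCs and 3.89 to 4.95 gigabases in gonads. Summed TPM of 5 germ cell markers (Ddx4, Dazl, Dppa3, Dnd1 and Pou5f1) was at least 1677 in every PGC library. Y-linked transcripts summed to at most 0.601 TPM in female PGCs. At E12.5 they summed to 194 to 212 TPM in control and 129.6 to 154 TPM in IUHG libraries, so those pools held male cells. A library of each kind stood apart. E13.5F IUHG library 3 had an FPKM total of 340826, against 450022 to 477647 in the other 5 E13.5F libraries. Gonad control library 1, labelled female, held 51.3 TPM of Y-linked transcripts, 262 TPM of Sertoli cell markers and 388 TPM of steroidogenic cell markers, while the other 5 gonad libraries held 0, 9.15 to 11.4 and 5.90 to 28.7 TPM. Values without these libraries are given below for the E13.5F, stage ratio and gonad results.

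Germline genes are held silent and later induced at their promoters, so the start regions of the 9 genes are shown first. RefSeq promoters (GRCm38.p6, 250 bases before to 50 bases after the transcription start) were at hand for all 9 genes, 12 promoters in all. The 3 motifs were searched on both strands and are the E-box CACGTG, the E2F-type site GCGGGAA (both recognised by a repressor of germline genes) and CNCCTCAG, the motif described for the meiotic inducers STRA8 and MEIOSIN. The E-box was found in promoters of 5 genes (Sycp1, Sycp3, Syce2, Tex12 and Hormad1), in 6 of 12 promoters, and in 7.15% of all 32851 promoters of the table. The E2F-type site was found in 4 genes (Sycp3, Syce2, Tex12 and Hormad1), in 5 of 12 promoters and in 4.60% of all promoters. CNCCTCAG was found in 4 genes (Sycp1, Syce2, Tex12 and Hormad2), in 4 of 12 promoters and in 7.94% of all promoters. In 1 promoter of Syce2, the E2F-type site overlaps the reverse complement of CNCCTCAG. The Hormad1 promoters (chr3:95559427-95559726 and chr3:95559429-95559728) overlap almost fully, so the same sites are counted in both. The stretches that hold these letters are printed on the strand of the gene, with the motifs in capitals (for Sycp1, whose CNCCTCAG lies after the start, only the E-box, and for Tex12 the last capitals are the first 7 of the 8 letters, since the window shown ends at the base before the start).
Sycp3, chr10:88459440-88459564, plus strand: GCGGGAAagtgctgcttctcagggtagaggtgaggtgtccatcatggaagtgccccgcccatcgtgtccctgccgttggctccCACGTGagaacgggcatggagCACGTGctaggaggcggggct
Tex12, chr9:50561269-50561413, minus strand: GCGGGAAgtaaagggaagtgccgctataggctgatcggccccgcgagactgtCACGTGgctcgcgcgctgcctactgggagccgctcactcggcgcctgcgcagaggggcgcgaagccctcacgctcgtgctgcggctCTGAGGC
Hormad1, chr3:95559567-95559676, plus strand: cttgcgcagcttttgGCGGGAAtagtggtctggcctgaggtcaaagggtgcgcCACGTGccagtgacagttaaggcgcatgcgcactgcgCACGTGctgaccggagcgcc
Syce2, chr8:84872155-84872245, plus strand: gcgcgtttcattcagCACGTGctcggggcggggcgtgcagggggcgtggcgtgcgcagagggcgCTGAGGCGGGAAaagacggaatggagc
Sycp1, chr3:102936174-102936209, minus strand: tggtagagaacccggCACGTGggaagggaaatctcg
Hormad2, chr11:4441169-4441206, minus strand: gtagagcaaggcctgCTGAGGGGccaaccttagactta
The promoters of Sycp2, Syce1 and Syce3 held none of the 3 motifs in this window. CpG dinucleotides numbered 5 to 33 per promoter of the 9 genes, against a median of 7 over all promoters. The E-box and the E2F-type site each hold a CpG, and the shares over all promoters were not matched for CpG. A match is a run of letters and not evidence of binding.

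In control PGCs, transcripts of all 9 genes were higher in E13.5F than in E12.5 PGCs and higher in females than in males, by least for Syce2 at E13.5 (mean TPM 2.02 times that of males) and for Tex12 at E16.5 (2.97 times). Each library is a pool of cells, so fewer expressing cells and less RNA per cell cannot be told apart. Summed over the 9 genes, control PGCs held 947 ± 30.6 TPM at E12.5, 4785 ± 209 TPM at E13.5F and 11773 ± 635 TPM at E16.5F (mean ± SD, n = 3 each). The male sums were 872 ± 22.8 TPM at E13.5M and 1091 ± 66.0 TPM at E16.5M. The female sums at E13.5 and E16.5 thus lay above those of every E12.5 and male library.

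**Figure D1:**
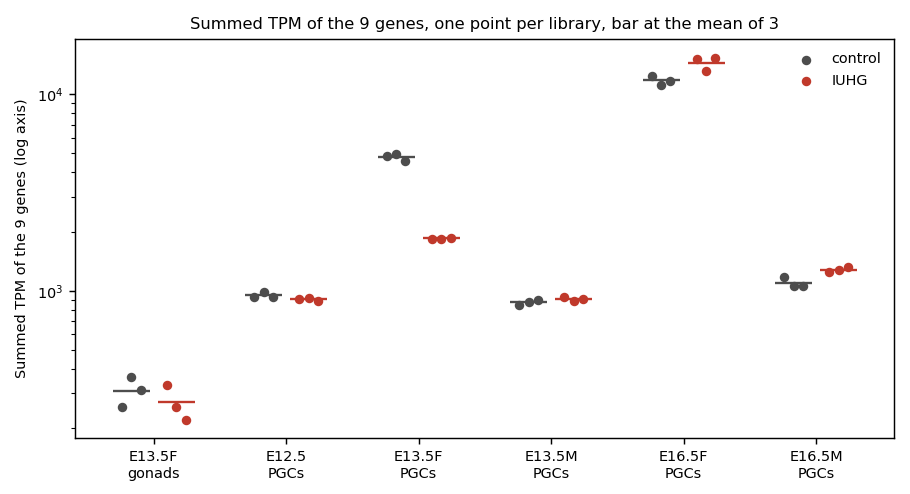
Summed TPM of the 9 genes (vertical log axis) in each group, with 1 point per library, grey for control and red for IUHG, and a bar at the mean of 3. The control E13.5F libraries lie at 4557 to 4967 TPM and the IUHG E13.5F libraries at 1839.6 to 1853 TPM, while the E16.5F libraries lie at 11159 to 12428 TPM in control and 13056 to 15365 TPM in IUHG.

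Among the axis genes, Sycp3 (ENSMUSG00000020059.10, chr10:88295431-88309098, plus strand; positions of the PGC tables are in GRCm39), a main axis component, was at 116, 135 and 125 TPM in the E12.5 control libraries and at 4982, 4630.3 and 4694 TPM in the E16.5F control libraries. It was the most abundant of the 9 transcripts in control E13.5F and E16.5F PGCs. Sycp2 (ENSMUSG00000060445.12, chr2:177987086-178049478, minus strand), its axis partner, was at much lower levels, 2.74, 4.46 and 4.39 TPM at E12.5 and 139.5, 126 and 133 TPM at E16.5F. Hormad1 (ENSMUSG00000028109.15, chr3:95466988-95494982, plus strand), which promotes double-strand break formation and homologue synapsis, was at 179, 165 and 162 TPM at E12.5 and 1518, 1430.5 and 1492 TPM at E16.5F. Hormad2 (ENSMUSG00000020419.12, chr11:4295814-4391082, minus strand), which acts in the surveillance of unsynapsed axes, was at 32.4, 31.6 and 36 TPM at E12.5 and 106, 107 and 115 TPM at E16.5F. For Hormad2, the E13.5F libraries (101 to 112 TPM) overlapped the E16.5F libraries, so those neighbours in its order do not differ beyond their spread.

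Sycp1 (ENSMUSG00000027855.14, chr3:102725815-102843416, minus strand), the transverse filament gene, was at 35.1, 30.4 and 31.1 TPM at E12.5, 269 to 319 TPM at E13.5F and 1869, 1776 and 1919 TPM at E16.5F in control PGCs, so most of its level was reached after E13.5. Its male libraries at E13.5 (58.5 to 65 TPM) and E16.5 (56.6 to 60.4 TPM) overlapped. Reads of a Sycp1 pseudogene copy, Sycp1-ps1, reached at most 2.01 TPM in any PGC library.

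The central element genes differed among themselves. Syce2 (ENSMUSG00000003824.13, chr8:85598740-85614850, plus strand), which assembles with TEX12 into fibres, was already at 381, 416 and 402 TPM in E12.5 control libraries, the highest of the 9 genes there. Its partner Tex12 (ENSMUSG00000032065.7, chr9:50468119-50472625, minus strand) was at 58.1, 60.3 and 62.9 TPM at E12.5 and 1115, 956 and 1013 TPM at E16.5F. Syce3 (ENSMUSG00000078938.10, chr15:89274377-89294706, minus strand), which links transverse filaments to the central element, was at only 8.19, 4.93 and 5.68 TPM at E12.5 and reached 1109, 887 and 1045 TPM at E16.5F. Syce1 (ENSMUSG00000025480.6, chr7:140357142-140367765, minus strand), a further central element gene, was at 113, 134 and 104 TPM at E12.5 and 633, 509 and 497 TPM at E16.5F. The ratio of mean TPM between control E16.5F and E12.5 PGCs thus ran from 2.1 for Syce2 to 162 for Syce3. For Syce2, the E13.5F libraries (784 to 815 TPM) overlapped the E16.5F libraries (738 to 956 TPM), and the E12.5 libraries overlapped the E13.5M libraries (379.7 to 419 TPM). The E12.5 and E13.5M control libraries of Sycp3 and the E12.5 and E16.5M control libraries of Syce1 overlapped as well.

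**Figure D2:**
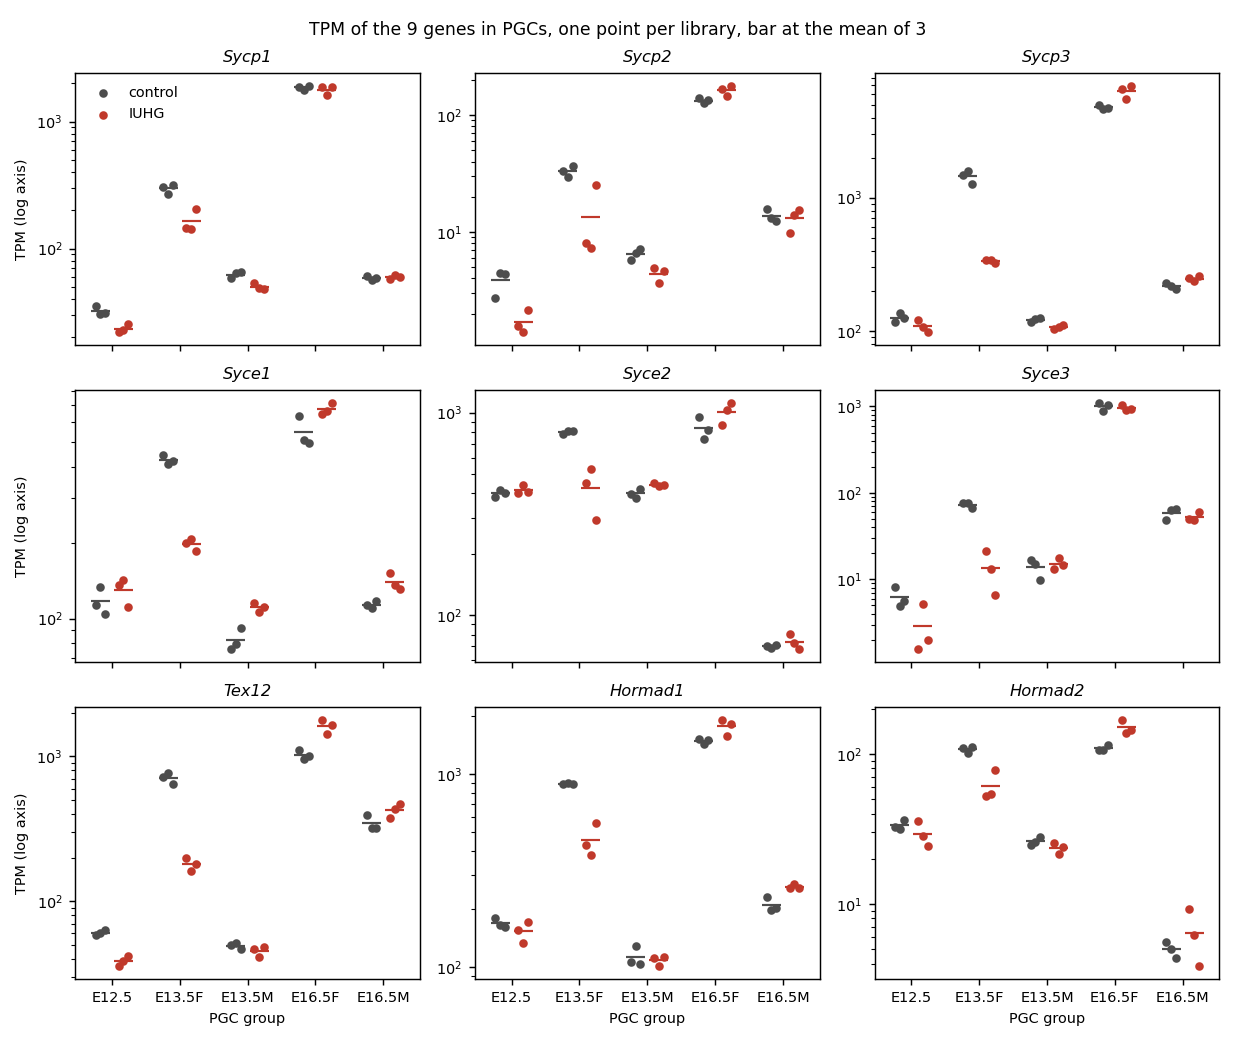
TPM of each of the 9 genes (vertical log axis, with its own range in each panel) in the 5 PGC stages and sexes, with 1 point per library and a bar at the mean of 3. In the E13.5F column every IUHG library of each gene lies below every control library, and for Sycp3 the IUHG libraries lie at 324 to 342 TPM against 1257 to 1596 TPM.

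Between control groups, tests were run on log2(TPM + 1) with limma over all genes whose mean in a compared group reached 1 TPM. Calls in PGCs required a log2 difference beyond 1 and a Benjamini-Hochberg adjusted p below 0.01. All 9 genes were called higher in control E13.5F than in E12.5 PGCs, against 18.6% of the 15368 genes tested, with log2 differences from 1.01 (Syce2) to 3.53 (Tex12). That comparison sets female pools against unsexed pools. All 9 were also called higher in female than in male control PGCs at E13.5 (20.4% of 15703 genes were called higher) and at E16.5 (22.9% of 22037 genes). At E13.5 the log2 difference between the sexes was largest for Tex12 (3.82) and smallest for Syce2 (1.01). At E16.5 it was largest for Sycp1 (4.96) and smallest for Tex12 (1.57). Median-of-ratios scaling moved the median log2 difference of all genes by -0.28 in the E13.5 sex comparison and by -0.24 from E12.5 to E13.5F (-0.22 to -0.28 over the 5 comparisons of control groups), and the log2 difference of Syce2 was then below the fold threshold in both (0.68 and 0.72).

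From E13.5 to E16.5 the 9 genes divided. In control females, Sycp1 (2.64 ± 0.08 (SE) on the log2 scale), Sycp2 (1.98), Sycp3 (1.73) and Syce3 (3.77) were called higher at E16.5, and 18.4% of 17969 genes were. The log2 differences of the other 5 were 0.73 for Hormad1, 0.53 for Tex12, 0.35 for Syce1, 0.05 for Syce2 and 0.03 for Hormad2. In control males, Tex12 (2.78) and Syce3 (2.04) were called higher at E16.5, as were 38.3% of 20409 genes. Syce2 (-2.49) and Hormad2 (-2.18) were called lower, as were 12.7% of those genes. The log2 differences of the other 5 from E13.5M to E16.5M were 0.97 for Sycp2, 0.90 for Hormad1, 0.83 for Sycp3, 0.46 for Syce1 and -0.09 for Sycp1. None of these was called. Tex12, at 396, 322 and 320.0 TPM, was then the most abundant of the 9 in male PGCs, and Syce2 was at 379.7 to 419 TPM at E13.5M and 68.4 to 71.5 TPM at E16.5M.

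In E13.5F PGCs, at the stage of meiotic entry, all 9 genes were lower in each IUHG library than in each control library, and 4 of them (Sycp3, Tex12, Syce1 and Syce3) fell past the thresholds of the test. The summed TPM of the 9 genes was 4829.6, 4967 and 4557 in the control libraries and 1842, 1839.6 and 1853 in the IUHG libraries. The 4 calls compare with 0.436% of the 16519 genes tested that were called lower, and the 9 genes without overlap with 13.2% of all genes. The median log2 fold change of the 9 genes was -1.11, and that of all genes was 0.14 (0.0045 after median-of-ratios scaling, which moved it by -0.14).

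Of the axis genes, Sycp3 was at 1480.0, 1596 and 1257 TPM in the control and 340.1, 342 and 324 TPM in the IUHG libraries. Its IUHG libraries lay within 20 TPM of each other and its mean was 23.2% of control (log2 fold change -2.10 ± 0.15 (SE), limma adjusted p = 0.000452). By mean TPM, Sycp3 was the most abundant of the 9 transcripts in control and came after Hormad1 and Syce2 in IUHG, although in IUHG library 3 it lay above Syce2. Sycp2 was at 33.2, 29.7 and 36.4 TPM in control and 8.08, 7.27 and 25.1 TPM in IUHG libraries (-1.44 ± 0.41 (SE), limma adjusted p = 0.089). IUHG library 3 stood closest to control for Sycp2, and without that library Sycp2 was called, at -1.97 ± 0.18 (SE) with a limma adjusted p of 0.000334.

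The HORMA-domain genes differed by less than Sycp3 and Sycp2. Hormad1 was at 885, 896 and 886 TPM in control and 428, 381 and 554 TPM in IUHG libraries, 51.1% of control (-0.99 ± 0.17 (SE), limma adjusted p = 0.0217). Hormad2 was at 109, 101 and 112 TPM in control and 52.7, 54.1 and 77.8 TPM in IUHG libraries, 57.4% of control (-0.81 ± 0.20 (SE), limma adjusted p = 0.0662). Neither passed both thresholds, although the groups did not overlap. The transverse filament gene Sycp1 was at 304, 269 and 319 TPM in control and 147, 144 and 204 TPM in IUHG libraries, 55.4% of control (-0.86 ± 0.19 (SE), limma adjusted p = 0.0449).

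Among the central element genes, Syce3 had the largest difference of the 9, from 75.7, 76.8 and 67.7 TPM in control to 21.1, 13.3 and 6.65 TPM in IUHG libraries. Coverage of Syce3 (mean reads per base) was 90.0 to 160 in control and 12.0 to 39.6 in IUHG libraries. Its mean TPM was 18.6% of control (-2.47 ± 0.35 (SE), limma adjusted p = 0.00923), and its IUHG libraries spread over a wider range than those of Sycp3. Tex12 fell from 716, 774 and 642 TPM to 198, 163 and 181 TPM, 25.4% of control (-1.97 ± 0.16 (SE), limma adjusted p = 0.000688). Syce1 fell from 443, 411 and 422 TPM to 199, 206 and 186 TPM, 46.2% of control (-1.11 ± 0.15 (SE), limma adjusted p = 0.00807). Syce2, the partner of Tex12, was at 784, 812 and 815 TPM in control and 449, 529.5 and 294 TPM in IUHG libraries, 52.8% of control (-0.96 ± 0.22 (SE), limma adjusted p = 0.0471). IUHG library 3 was the lowest of the 3 for Syce2, and the IUHG libraries at E12.5 held 399 to 441 TPM of it. Of the 4 called genes, Sycp3 and Tex12 hold the printed E-box and E2F-type letters and Syce1 and Syce3 hold none of the 3 motifs.

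**Figure D3:**
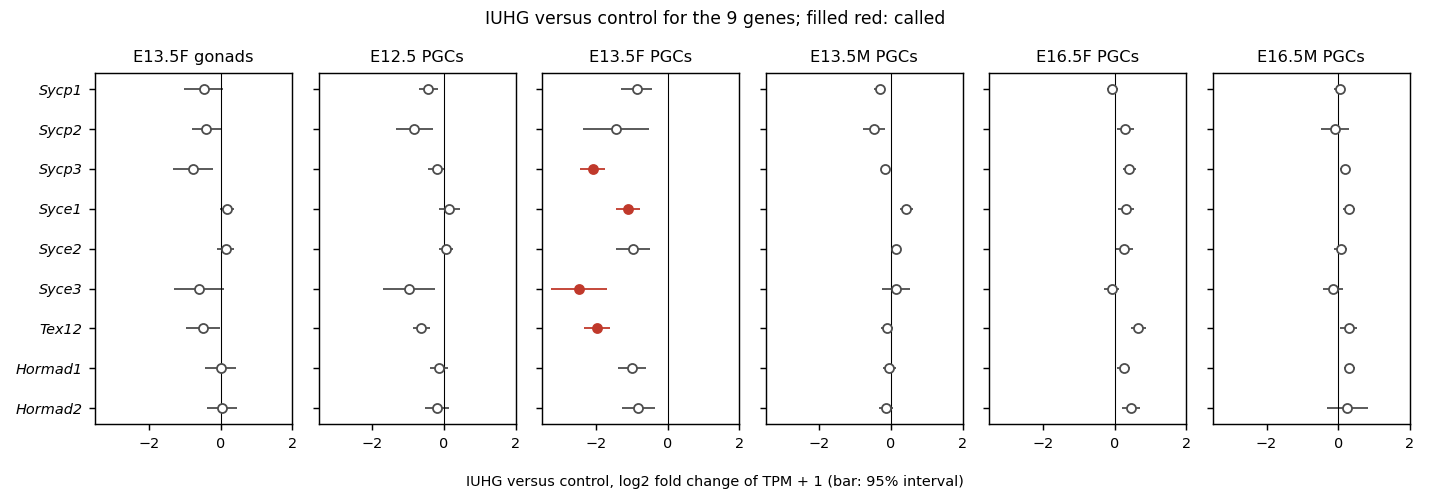
Log2 fold change of TPM + 1, IUHG against control, of the 9 genes in each of the 6 comparisons, with 95% intervals of limma (n = 3 per group), and filled red points for called genes. The 4 called genes are all in the E13.5F panel, where every point lies below 0, from -2.47 to -0.81.

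The number of called genes in E13.5F PGCs depended on single libraries, whereas the direction did not. It was 1 without control library 1, 0 without control library 2, 2 without control library 3 and 2 without IUHG library 2. It was 3 without IUHG library 1, and 7 without IUHG library 3, the library that stood apart. The count over all genes called lower moved as well, from 72 with all libraries. It was 7, 1 and 9 without control library 1, 2 or 3, and 40, 18 and 334 without IUHG library 1, 2 or 3. Without IUHG library 3, the log2 fold changes of the 9 genes ran from -2.07 (Sycp3 and Syce3) to -0.72 (Syce2), with a median of -1.14. All 9 still did not overlap, as leaving out a library cannot bring overlap where there was none. Sycp3 was called in 10 of 12 alternative settings (log2 fold change -2.26 to -2.02), Tex12 in 9, Syce3 in 6 and Syce1 in 4, and all 9 genes were below 0 in all 12.

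Germ cell markers were not lower as a list. Ddx4, a germ cell RNA helicase, was at 527, 437 and 605 TPM in control and 315, 387 and 669.5 TPM in IUHG E13.5F libraries, and Dazl, a germ cell RNA-binding gene, at 1962, 1962 and 2043 TPM in control and 1818, 2025 and 3399 TPM in IUHG libraries. The summed TPM of the 5 germ cell markers was higher in IUHG (5579 to 6279.8) than in control (4658 to 4955) libraries. This did not hold for each marker. In IUHG library 3 both Ddx4 and Dazl lay above every control library, while in the other IUHG libraries Ddx4 lay below every control library. In those other libraries the higher sum came from Dppa3, Dnd1 and Pou5f1, not from Ddx4 and Dazl. Pou5f1 is the gene behind the Oct4-EGFP reporter used for the sort. The part of cell makeup was not tested. Among markers of other cells, the 4 Sertoli markers summed to at most 0.694 TPM in any E13.5F library, and the 4 interstitial markers to 3.26 to 3.69 TPM in control and 2.28 to 7.35 TPM in IUHG. Pregranulosa markers summed to 16.0 to 20.1 TPM in control and 11.2 to 18.9 TPM in IUHG libraries. Of the endothelial markers, Cdh5 and Kdr were below 1 TPM, and Pecam1 was at 50.4 to 69.1 TPM in control and 88.4 to 208 TPM in IUHG libraries, whose part in the result was not tested. Of the 9 genes, 3 share their locus with an expressed gene on the other strand, and since a strand setting of the quantification is not given in the sources used here, their reads cannot be told apart. Chpt1, which overlaps Sycp3, was at 47.6 to 56.7 TPM in control and 51.3 to 70.8 TPM in IUHG E13.5F libraries. Il18, which overlaps Tex12, was at 4.49 to 8.34 TPM in control and 0 to 1.80 TPM in IUHG libraries. Gcdh, which overlaps Syce2, was at 14.2 to 14.7 TPM in control and 15.9 to 21.8 TPM in IUHG libraries. All 3 were below the gene they overlap in the same libraries. In IUHG, the mean of Chpt1 was 60.2 TPM against 336 TPM for Sycp3.

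Set against the neighbouring stages, the step from E12.5 to E13.5F was smaller in IUHG and the step from E13.5F to E16.5F larger. In control, mean TPM of Sycp3 was 11.5 times higher at E13.5F than at E12.5, and in IUHG 3.09 times. For Tex12 the same ratio was 11.8 in control and 4.66 in IUHG, and for Syce2 2.01 and 1.02. The median ratio of the 9 genes was 8.57 in control and 3.09 in IUHG. From E13.5F to E16.5F, Sycp3 rose 3.3-fold in control and was 18.9 times higher at E16.5F in IUHG, and Syce3 13.8 and 69.9 times. The median ratio was 1.67 in control and 9.02 in IUHG. Without E13.5F IUHG library 3, chosen as an alternative after seeing the data, the IUHG medians were 3.15 and 9.02, and all 9 ratios stayed on the same side of control in both steps. The ratio of Sycp2 rested most on that library, with 7.93 and 4.51 for the first step and 12.2 and 21.4 for the second, with and without it. These ratios share the E13.5F libraries and are given as a description. The first step divides by E12.5 pools, which were unsexed and differed in Y-linked transcripts between control and IUHG. For Sycp2 and Syce3 it divides by IUHG means of only 1.7 and 2.91 TPM.

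**Figure D4:**
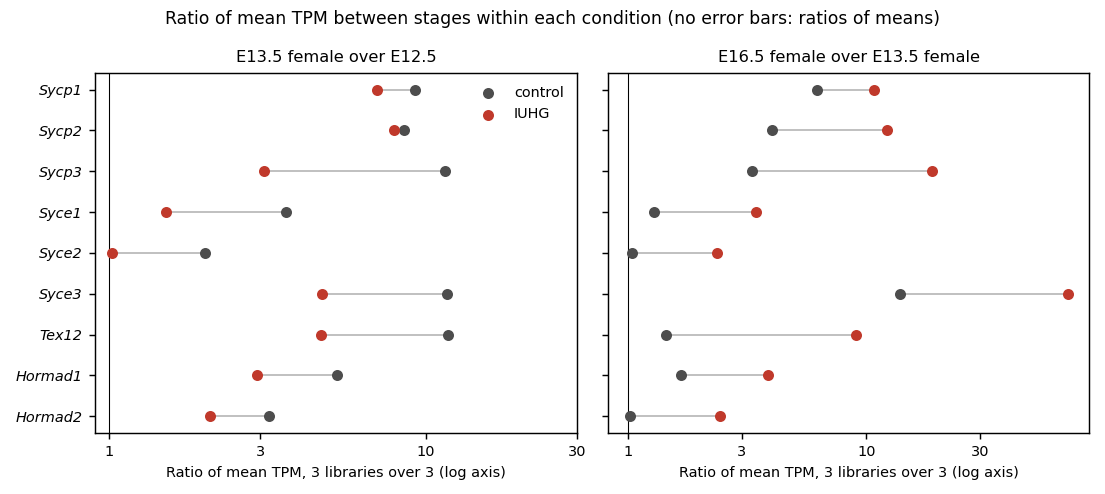
Ratio of mean TPM (3 libraries over 3, log axis) of each gene between E13.5F and E12.5 PGCs and between E16.5F and E13.5F PGCs, grey for control and red for IUHG. In the E13.5F over E12.5 panel the red points lie to the left of the grey points, and in the E16.5F over E13.5F panel to the right, for each of the 9 genes, with all 3 IUHG libraries of E13.5F in the means.

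Whether the IUHG effect differed between sexes and between stages was tested as an interaction, called at an adjusted p under 0.01. At E13.5, the effect was lower in females than in males for 4 of 9 genes, against 2% of 17365 genes: Sycp3 (difference of log2 fold changes -1.92 ± 0.15 (SE), limma adjusted p = 9.39e-06), Tex12 (-1.85), Syce1 (-1.54) and Syce3 (-2.61). Hormad1 and Syce2 just missed the threshold, with limma adjusted p = 0.0101 and 0.0113, and all 9 differences were below 0. Without E13.5F IUHG library 3, all 9 genes were called, against 965 of 16724 genes called lower in that setting. In female PGCs, the effect was lower at E13.5 than at E16.5 for 6 of 9 genes, against 1.35% of 20557 genes, and these were the same 4 genes with Hormad1 and Hormad2. The largest of these differences was that of Tex12 (-2.63 ± 0.18 (SE), limma adjusted p = 1.87e-06). Without E13.5F IUHG library 3, all 9 genes were called here too, against 544 of 20161 genes called lower in that setting. Both interactions use the same E13.5F libraries, so they are not separate evidence. The 4 groups of each fit shared 1 estimate of the spread. Tested alone at E13.5, the SE of Sycp3 was 0.15 in females and 0.05 in males, so the shared spread can understate that of the E13.5F libraries.

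At E12.5, before meiotic entry, none of the 9 genes was called with limma (0.247% of 13756 genes were called in either direction), and 4 of the 9 had an unadjusted p under 0.05, as did 15.7% of all genes. Of the 9, 3 were lower in all IUHG than in all control libraries, against 9.13% of genes: Tex12, Sycp1 and Sycp2. Tex12 was at 58.1, 60.3 and 62.9 TPM in control and 35.6, 38.9 and 41.7 TPM in IUHG libraries (-0.63 ± 0.10 (SE), limma adjusted p = 0.0207). Sycp1 was at 35.1, 30.4 and 31.1 TPM in control and 22, 22.8 and 25.5 TPM in IUHG libraries (-0.44 ± 0.12 (SE), limma adjusted p = 0.113). Sycp2 and Syce3 were near the lower end of the scale, with mean levels of 3.86 and 6.26 TPM in control and 1.7 and 2.91 TPM in IUHG. The other 5 genes had log2 fold changes from -0.21 (Sycp3) to 0.15 (Syce1). The sex makeup of these unsexed pools moved with the condition as far as Y-linked transcripts show it (194 to 212 TPM in control, 129.6 to 154 TPM in IUHG), and Sertoli markers summed to 12.6 to 14.7 TPM in control and 0.158 to 5.83 TPM in IUHG. The 5 germ cell markers also did not overlap, with 7614 to 8272 TPM in control and 6718 to 7524 TPM in IUHG. Their part in these differences was not tested.

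In E13.5M PGCs, where control levels of each gene were below those of control E13.5F PGCs, none was called (3.93% of 14458 genes were). The genes did not move one way. Syce1 was higher, at 75.7, 79.2 and 92.1 TPM in control and 116, 106 and 111 TPM in IUHG libraries, and Sycp1 lower, at 58.5, 64.2 and 65 TPM in control and 53.3, 49.2 and 47.9 TPM in IUHG libraries. Both passed the adjusted p but not the fold threshold (Syce1 0.43 ± 0.08 (SE), limma adjusted p = 0.00218, and Sycp1 -0.31 ± 0.07 (SE), limma adjusted p = 0.00629). Of the 9, 3 were lower without overlap (Sycp1, Sycp2 and Sycp3, against 25.4% of genes) and 2 higher (Syce1 and Syce2, against 21.8%). Both counts are near those shares. The log2 fold change of Tex12, -0.12, had a 95% interval of -0.29 to 0.05, and that of Hormad1, -0.05, one of -0.23 to 0.14. Steroidogenic cell markers summed to 30.8 to 47.8 TPM in control and 0.0579 to 3.95 TPM in IUHG E13.5M libraries. The 5 germ cell markers summed to 8775 to 9442 TPM in control and 7747 to 8042 TPM in IUHG, and the part of neither list was tested.

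In E16.5F PGCs, 7 of the 9 log2 fold changes were above 0, and those of Sycp1 and Syce3 just below. None was called with limma (0.742% of 18734 genes were, in either direction), and 7 had an unadjusted p under 0.05, as did 22.8% of all genes. Tex12 had the largest difference, at 1115, 956 and 1013 TPM in control and 1797, 1438 and 1648 TPM in IUHG libraries, 158% of control (0.66 ± 0.09 (SE), limma adjusted p = 0.00544). Sycp3 was at 4982, 4630.3 and 4694 TPM in control and 6572, 5532 and 6963 TPM in IUHG libraries (0.41 ± 0.08 (SE), limma adjusted p = 0.0217). Of the 9, 6 (Sycp2, Sycp3, Syce1, Tex12, Hormad1 and Hormad2) were higher without overlap, against 14.9% of genes, and their log2 fold changes ran from 0.25 to 0.66. Sycp1 (1776 to 1919 TPM in control, 1618 to 1859.7 in IUHG) and Syce3 (887 to 1109 and 909 to 1028 TPM) overlapped, with 95% intervals of the log2 fold change of -0.22 to 0.09 and -0.29 to 0.12. Interstitial cell markers summed to 8.85 to 22.4 TPM in control and 35.3 to 45.5 TPM in IUHG, and their part was not tested. Il18, on the other strand of Tex12, was at 147 to 211 TPM in control and 163 to 182 TPM in IUHG libraries.

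In E16.5M PGCs none of the 9 genes was called with limma (0.201% of 20921 genes were), and 4 had an unadjusted p under 0.05, as did 23.9% of all genes. Sycp3, Syce1 and Hormad1 were higher without overlap, against 17.8% of genes. Hormad1 was at 231, 197 and 201 TPM in control and 256, 269 and 258 TPM in IUHG libraries (0.32 ± 0.07 (SE), limma adjusted p = 0.0372). Syce1 was at 113, 110.0 and 117 TPM in control and 152, 136 and 131 TPM in IUHG libraries (0.30 ± 0.07 (SE), limma adjusted p = 0.0482). The other 6 genes overlapped between the groups. Sertoli markers summed to 75.4 to 95.3 TPM in control and 17.3 to 35.8 TPM in IUHG, and steroidogenic markers to 40.1 to 180.0 and 10.7 to 31.4 TPM, and their part was not tested.

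In whole E13.5F gonads none of the 9 genes was called with limma (adjusted p under 0.05 and a fold change of at least 2, met by 0.622% of 18005 genes), and 2 had an unadjusted p under 0.05, as did 19.9% of all genes. Sycp3 was at 59.8, 98.2 and 77.9 TPM in control and 62.9, 44.2 and 32 TPM in IUHG gonads (-0.77 ± 0.24 (SE), limma adjusted p = 0.13). Tex12 was at 26.1, 31.1 and 28.1 TPM in control and 29.6, 16.3 and 16 TPM in IUHG libraries (-0.49 ± 0.21 (SE), limma adjusted p = 0.235), and Syce3 at 4.63, 9.67 and 11.8 TPM in control and 6.41, 5.45 and 3.59 TPM in IUHG libraries (-0.60 ± 0.30 (SE), limma adjusted p = 0.313). The groups overlapped for all 9 genes, while 11.3% of all genes were lower without overlap. Sycp1, Sycp2, Sycp3, Syce3 and Tex12 had log2 fold changes below 0, and those of Syce1, Syce2, Hormad1 and Hormad2 were between 0.00 and 0.18. For Hormad1 the 95% interval was -0.44 to 0.44, and without control library 1 the log2 fold changes of Hormad1 and Hormad2 were -0.19 and -0.10. Without control library 1, which held male somatic markers, Sycp3 (-0.95 ± 0.24, SE, limma adjusted p = 0.0936) and Syce3 (-0.95 ± 0.21, adjusted p = 0.0731) no longer overlapped, and still none was called. Fewer control libraries make non-overlap easier to reach. Its share over all genes was not computed without control library 1, and the 11.3% above is for all libraries.

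The germ cell markers themselves differed between the gonad groups, so the 9 genes were also taken relative to the mean TPM of Ddx4 and Dazl, which was 102, 135 and 129 in control and 184, 170.0 and 145 in IUHG gonads. On this ratio, Sycp3 was at 0.586, 0.725 and 0.603 in control and 0.343, 0.26 and 0.221 in IUHG gonads, 43% of control. Syce3 was at 44.1%, Tex12 at 52.4%, Sycp1 at 52.7% and Sycp2 at 54% of control. Hormad1 (73.3%), Hormad2 (74.7%), Syce2 (80.9%) and Syce1 (83%) were nearer to control. All 9 were lower without overlap, with and without control library 1, but so were 52.4% of all 18005 genes on this denominator, with a median of 73.6% of control. The 5 lowest genes lay below that median, Hormad1 and Hormad2 next to it, and Syce1 and Syce2 above it. Ddx4 and Dazl also varied among the IUHG libraries of sorted E13.5F PGCs, as given above. Whether this denominator is steady per germ cell was not tested. Interstitial markers summed to 989 to 1029 TPM in control and 759.9 to 833 TPM in IUHG gonads, and blood markers to 6250.3 to 7957 and 4458 to 5272 TPM.

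**Figure D5:**
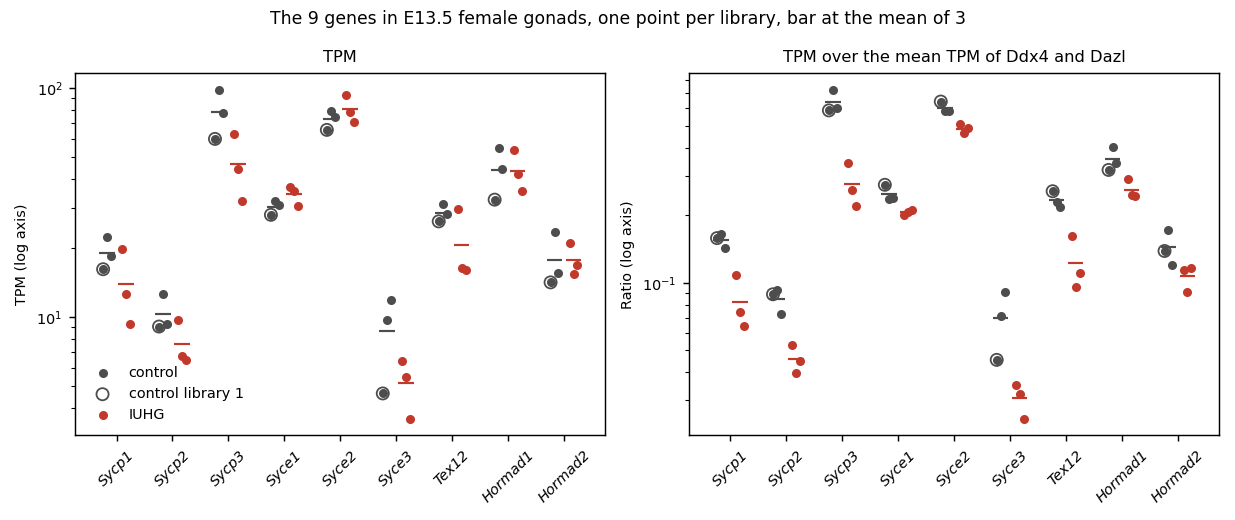
TPM (left, log axis) and TPM relative to the mean of Ddx4 and Dazl (right, log axis) of the 9 genes in E13.5F gonads, with 1 point per library, grey for control, red for IUHG, a bar at the mean of 3 and a ring around control library 1. On the left the groups overlap for each gene, and on the right every red point lies below every grey point of its gene.

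A list of 13 partner genes of axis formation, break formation, synapsis and meiotic induction was examined beside the 9. In E13.5F PGCs 12 were tested with limma, 0 were called higher and 4 lower (Stra8, Meiosin, Rad21l and Iho1, the last chosen after its values were seen), with a median log2 fold change of -0.70. Over all genes, 0.436% were called lower. Stra8, the retinoic-acid-induced gatekeeper of meiotic entry, was at 1936, 1718 and 1841 TPM in control and 466, 491 and 326 TPM in IUHG libraries (-2.12 ± 0.19 (SE), limma adjusted p = 0.00109). Its partner Meiosin was at 204, 168 and 217 TPM in control and 18.1, 26.1 and 36.5 TPM in IUHG libraries (-2.87 ± 0.26 (SE), limma adjusted p = 0.00122). Rad21l, a meiotic cohesin kleisin and the largest difference of the list, was at 10.7, 10.3 and 13 TPM in control and 0.222, 0.132 and 1.99 TPM in IUHG libraries (-2.94 ± 0.41 (SE), limma adjusted p = 0.00923). The other meiotic kleisin, Rec8, was at 88.4, 86.5 and 88.9 TPM in control and 68.6, 53.1 and 71.2 TPM in IUHG libraries (-0.46 ± 0.19 (SE), limma adjusted p = 0.188), and the cohesin subunit Stag3, the smallest difference with all libraries, at 219, 145 and 195 TPM in control and 126, 152 and 313 TPM in IUHG libraries (-0.02 ± 0.32 (SE), limma adjusted p = 0.979). Of these 3 cohesin genes, Rad21l alone passed the test with all libraries. Without IUHG library 3, 5 of 12 partners were called lower, as were 334 of 15834 genes. They were the 4 named above and a further cohesin gene, Smc1b, named after its values were seen. In that setting the log2 fold change of Stag3 was -0.41 ± 0.18 (SE, limma adjusted p = 0.162), that of Rec8 -0.53 ± 0.15 (0.045), that of Rad21l -3.38 ± 0.26 (0.000115), that of Stra8 -1.93 ± 0.10 (1.11e-05) and that of Meiosin -3.11 ± 0.18 (2.06e-05). The sex interaction at E13.5 was called lower for 5 of 12 partners tested, against 2% of 17365 genes. The female stage interaction was called lower for 5 of 13, against 1.35% of 20557 genes.

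In E13.5M PGCs, 11 partners were tested and 3 were called higher, Stra8, Rec8 and Meiosin, against 2.03% of all genes called higher. Stra8 was at 8.73, 13 and 11.7 TPM in control and 175, 138 and 134 TPM in IUHG libraries (3.63 ± 0.14 (SE), limma adjusted p = 2.51e-07), while the 9 axis and synaptonemal complex genes had a median log2 fold change of -0.12 there. None of the partners was called in E12.5 (11 tested), E16.5F (13) or E16.5M (13) PGCs. In E16.5F PGCs, only Stag3 (0.92 ± 0.09 (SE)) and Meiosin (0.87 ± 0.09) passed the adjusted p (limma, 0.00135 for each), and neither passed the fold threshold. The median log2 fold change of the partners there was 0.21. In gonads 12 were tested and Rad21l was called lower, as were 0.233% of all genes (-1.30 ± 0.27 (SE), limma adjusted p = 0.0471), but not without control library 1 (limma adjusted p = 0.0614).

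Across the 30 PGC libraries, the 9 genes were related to each other to different degrees. Pearson's r of log2(TPM + 1) over the 36 pairs of genes had a median of 0.862 and ran from 0.141 for Syce2 and Tex12 to 0.975 for Sycp3 and Hormad1. The mean of the other 8 genes was followed most closely by Sycp3 (r = 0.995) and least by Syce2 (0.50) and Hormad2 (0.675), the 2 genes that fell from E13.5M to E16.5M in control. The libraries of a group share stage and sex, so r is a description and carries no p. Of the 25142 genes whose mean reached 1 TPM in a PGC group, the 5 other genes whose pattern was most like the mean of the 9 were Tex16 (r = 0.993), Gm15246 (0.986), Rsph3a (0.986), Gm45194 (0.985) and Zcwpw2 (0.985). Tex16 had a mean of 14.4 TPM in control and 5.21 TPM in IUHG E13.5F PGCs, and 47.9 and 62.2 TPM at E16.5F.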

How the data were processed

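Libraries were made from pooled Oct4-EGFP-sorted PGCs and from pooled gonads, and 3 samples per group are labelled as separate samples, so p-values measure the spread between these pools. Per the study's methods, the authors aligned PGC reads to mm39 with STAR in its 2-pass mode, kept unique reads and quantified genes with StringTie, while gonad reads were aligned with HISAT2 and quantified with StringTie. The submitters' processing notes also list FastQC, Trim Galore, featureCounts and DESeq2. The methods name mm9 for gonads, but gene positions in the gonad tables match GRCm38. The authors deposited a TPM, an FPKM and a coverage value (a signal, mean reads per base) per gene and library. No read counts were used here, so the counting error of a gene is not known, and depth was derived from coverage and FPKM.

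TPM was tested as log2(TPM + 1) with limma 3.58.1 in R 4.3.3 (trended empirical Bayes, two-sided, Benjamini-Hochberg over all genes tested) after a filter of mean TPM of at least 1 in a compared group. The pseudocount understates fold changes of low genes. For gonads, calls required a log2 difference no smaller than 1 in size, with the adjusted p below 0.05. For PGCs the limits were 0.01 and a difference above 1, and for interactions 0.01 alone. The study's PGC threshold was taken as adjusted. The script was tested on simulated data. The named genes were all 9 genes, at most 5 of 13 partners with values (largest and smallest difference in E13.5F PGCs, Stra8, Meiosin and Rec8), the 5 genes most like the mean of the 9, and cell type markers. The partners Iho1 and Smc1b were named after their values were seen. Members and lists were chosen with earlier results of these data known. Results were recomputed without each library in turn, in 1 fit over all PGC groups, with a replicate block, after median-of-ratios scaling, without the filter on low values, with 0.1 as the pseudocount and on FPKM. Same-numbered libraries did not deviate together (r from -0.0845 to 0.124 in the IUHG comparisons), so numbers were not taken as pairs. Python 3.11.15, pandas 2.3.3, numpy 2.4.6 and matplotlib 3.10.9 were used. Sequences are from RefSeq (GRCm38.p6).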

Additional observations from a re-analysis of the deposited data

Results flagged for a closer look

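The IUHG effect differed between conditions for 6 of the 9 genes, each by a limma interaction test on log2(TPM + 1) with adjustment over all genes. At E13.5, the log2 fold change in female minus male PGCs was -1.92 ± 0.15 (SE) for Sycp3 (limma adjusted p = 9.39e-06), -1.85 ± 0.17 for Tex12 (3.13e-05), -1.54 ± 0.15 for Syce1 (5.88e-05) and -2.61 ± 0.44 for Syce3 (0.00308). In female PGCs, the log2 fold change at E13.5 minus that at E16.5 was -2.50 ± 0.16 for Sycp3 (limma adjusted p = 1.13e-06), -2.63 ± 0.18 for Tex12 (1.87e-06), -1.43 ± 0.17 for Syce1 (0.000201), -2.39 ± 0.38 for Syce3 (0.00202), -1.23 ± 0.19 for Hormad1 (0.00135) and -1.27 ± 0.24 for Hormad2 (0.00603). Both sets rest on the same 6 E13.5F libraries, and on a spread shared by the groups of each fit.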

How the results depend on the processing

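In E13.5F PGCs 4 of the 9 genes were called lower. The number was 3 with FPKM, 3 with a pseudocount of 0.1, 3 with median-of-ratios scaling, 5 in 1 fit over all PGC groups and 0 without the filter on low TPM, where 1 gene of 37090 tested was called lower. It ran from 0 to 7 when single libraries were left out (1, 0 and 2 without control library 1, 2 or 3, and 3, 2 and 7 without IUHG library 1, 2 or 3). For the E13.5 sex interaction it was 4, with 7 under FPKM, 7 under median-of-ratios scaling and 3 to 9 without single libraries, and for the female stage interaction 6, with 4 to 9 (9 without E13.5F IUHG library 3). The cause was not tested. Over all genes, 72 were called lower in E13.5F PGCs, against 148 with FPKM, 123 with median-of-ratios scaling, 144 with a replicate block, 548 in 1 fit over all PGC groups, 334 without IUHG library 3 and 1 without control library 2. The sex interaction was called lower for 348 genes, against 524 with FPKM, 506 with median-of-ratios scaling and 965 without E13.5F IUHG library 3. The stage interaction was called lower for 278 genes, against 544 without that library. With the replicate block, the number of the 9 genes called was as without it in all 13 comparisons (4 in E13.5F PGCs). Of 167 counts under alternatives, 158 were within 1.5 times the main count, and of 1503 values of single genes 1406 kept direction and side of the threshold, 22 were uncalled throughout but changed sign, 45 lost and 30 gained a call and no called value reversed. Depth limits the lowest levels, among them Sycp2 and Syce3 at E12.5 (at most 6.26 TPM on average) and Hormad2 in control E16.5M PGCs (4.99 TPM).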
